A study of Rattus norvegicus with 8 samples.

Results

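The genes described here encode proteins that hepatocytes secrete into blood plasma: apolipoproteins, carriers, acute phase proteins, coagulation factors, protease inhibitors and complement components. They came from a list of 57 gene symbols, matched by name to the annotation of the array. Of these, 42 had at least 1 probe set (a group of short oligonucleotides that reads 1 transcript) annotated to that gene alone, out of 10411 such genes on the array. A gene with more than 1 probe set is represented by its brightest, judged by mean log2 signal over all 8 arrays. Apoc2, Saa4, F7, F9, F12, Serpinc1, Itih1, C5, C6 and C8a, 10 genes in all, had no probe set of their name and were not analysed here. The 5 genes Tf, Kng1, Kng2, C4a and Cfb were read only by probe sets annotated to several genes and are given no value. A2m lay below a filter on dim probe sets, so 41 of the genes were tested, among 7099 genes on the array.

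Cadmium is a toxic metal that accumulates in liver, and the study, by its title, was about gene expression at a low dose and a brief incubation. Hepatocytes, the parenchymal cells of the liver, were isolated from 4 rats and cultured overnight. Each rat gave 2 cultures, one that received cadmium chloride at 4 µM for 3 h and one that stayed in culture medium alone. Each of the 8 RNA samples was read on 1 Affymetrix rat array, so that the cadmium group and the control group hold 4 arrays each, from the same 4 animals. The sources used here do not give strain, age or genotype of the rats, and cells from any 1 rat reached both groups.

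The liver makes most of the protein of blood plasma. Albumin and the other carriers move hormones, lipids, haem and metals, and apolipoproteins are the protein part of lipoprotein particles. Coagulation factors form a cascade of proteases and cofactors that ends in fibrin, which plasmin dissolves, and complement is a related cascade that marks and lyses microbes. In inflammation, interleukin-6 acting through STAT3 and C/EBP factors changes the transcription of many of these genes, the acute phase response.

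The arrays were first checked against their labels. Hmox1, the haem oxygenase induced by cadmium, had a log2 change of 4.93, Hspa1a, a heat shock protein, of 5.92, Egr1, an immediate early transcription factor, of 5.66, each higher in 4 of 4 rats. Mt2A, a metallothionein that binds cadmium, had one of 0.92: it was higher in rats 1, 2 and 4 and about level in rat 3, at 10959 after cadmium and 10919 in control. Median signals lay between 180 and 186 on cadmium arrays and between 192 and 197 on control arrays (exact two-sided permutation p = 0.0286, the smallest that 70 assignments allow; 0.125 when signs are turned within rats, the smallest that 16 assignments allow). All 13 hepatocyte markers on the array passed the filter. So did 4 of the 12 markers of Kupffer cells and other leukocytes on the array (Cd68, Csf1r, Cd14 and Lyz2), 4 of 12 of stellate cells, 1 of 8 of endothelial cells and 2 of 5 of bile duct cells. Fluidics module 1 ran all control arrays and module 2 all cadmium arrays, so that module and treatment cannot be told apart. Precision is limited by the number of arrays. In such bulk RNA, fewer cells of a type and less RNA per cell cannot be told apart.

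The cadmium array of rat 4 stood apart for these genes, so results are given with and without that rat. The treatment responses named above were present in rat 4 too, at log2 differences of 5.20 for Hmox1, 5.70 for Hspa1a, 5.85 for Egr1 and 1.49 for Mt2A.

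Across the plasma protein genes, signals after 3 h of cadmium differed little from those of the control cultures of the same rats. In the paired fit (limma, rat as a block, Benjamini-Hochberg adjustment over all probe sets), 0 of 41 genes were higher and 1 was lower at an adjusted p under 0.05. The lower one was F5, coagulation factor V. Over all 7099 genes, 4.94% passed, 2.73% higher and 2.21% lower. Over all 9519 tested probe sets these shares were 5.15%, 2.86% and 2.29%, and of 47 tested probe sets of the plasma protein genes 1 passed. At an unadjusted p under 0.05, 3 of the 41 genes passed (F5, Apoc3 and Itih4), against 20.4% of all genes.

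The changes were small as well as few. The median log2 change (cadmium minus control) was 0.04 over the 41 genes and -0.06 over all tested genes, with 27 positive and 14 negative values. The sign of such small changes depended on the scaling: after quantile normalization the median of the list was -0.03 with 14 positive, and after median centring it was 0.12 with 35 positive, while the median of all genes was -0.04 and 0.02 under these scalings. Of all 7099 genes, 2723 changes were positive as deposited, 3036 after quantile normalization and 3798 after median centring. Without F5, the 40 others of the list lay between -0.17 and 0.26. Only F5 had moved by more than 1.2-fold, 2.44% of the 41, whereas 27.6% of all genes had. The standard error had a median of 0.08 on the log2 scale for these genes and 0.13 for all genes. Many of the plasma protein genes were very bright, and Alb gave the highest signal of the array on most arrays. All tested genes span every brightness past the filter, and no comparison at like brightness was made. Whether signal still rises in proportion to RNA at such brightness was not tested. The 95% confidence interval of the change stayed within 1.5-fold either way for 39 of 41 genes, F5 and Serpind1 being the others, and within 2-fold for all 41. A p above the threshold does not show that a gene did not change, and these intervals are the limits that the data set.

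**Figure D1:**
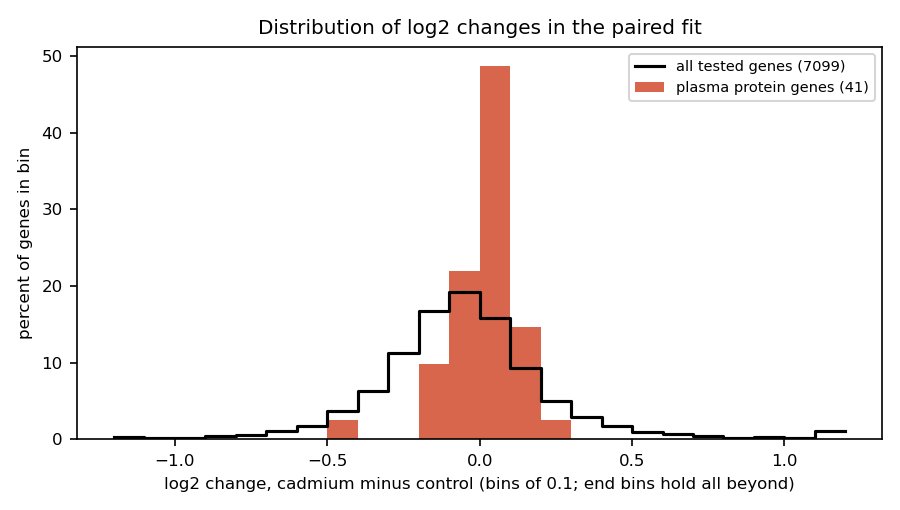
Share of genes (percent, vertical axis) by log2 change, cadmium minus control (horizontal axis, bins of 0.1), for the 41 plasma protein genes (filled bars) and all 7099 tested genes (line). The plasma protein genes lie close around their median of 0.04, and the single bar near -0.47 is F5.

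Factor V is the cofactor that speeds the activation of prothrombin, and F5 was the only gene of the list that passed the test. On the 4 cadmium arrays, in the order of rats 1 to 4, its signal was 1053, 1059, 1174 and 2245. On the control arrays of the same rats it was 1416, 1459, 1646 and 3175. Rat 4 had about the same relative loss as the other rats but a higher level in both cultures, and the values of the groups therefore overlapped.

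The mean signal of F5 was 1383 ± 578 after cadmium and 1924 ± 840.2 in control (SD, n = 4 each). Within rats 1 to 4 the log2 differences were -0.43, -0.46, -0.49 and -0.50, close together and lower after cadmium in 4 of 4 rats. The log2 change was -0.47 ± 0.08 (SE; 95% confidence interval -0.65 to -0.29), so signal fell by 27.7% (limma, adjusted p = 0.0140). This call rests on the pairing: without the rat as a block, the adjusted p was 0.489, in a fit that called 3.35% of all genes. It also did not pass without rat 1, rat 2 or rat 3 (limma, adjusted p = 0.0567, 0.0755 and 0.0917), nor in a fit with no variance trend (adjusted p = 0.0589), while the log2 change stayed between -0.49 and -0.39 under every alternative run.

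**Figure D2:**
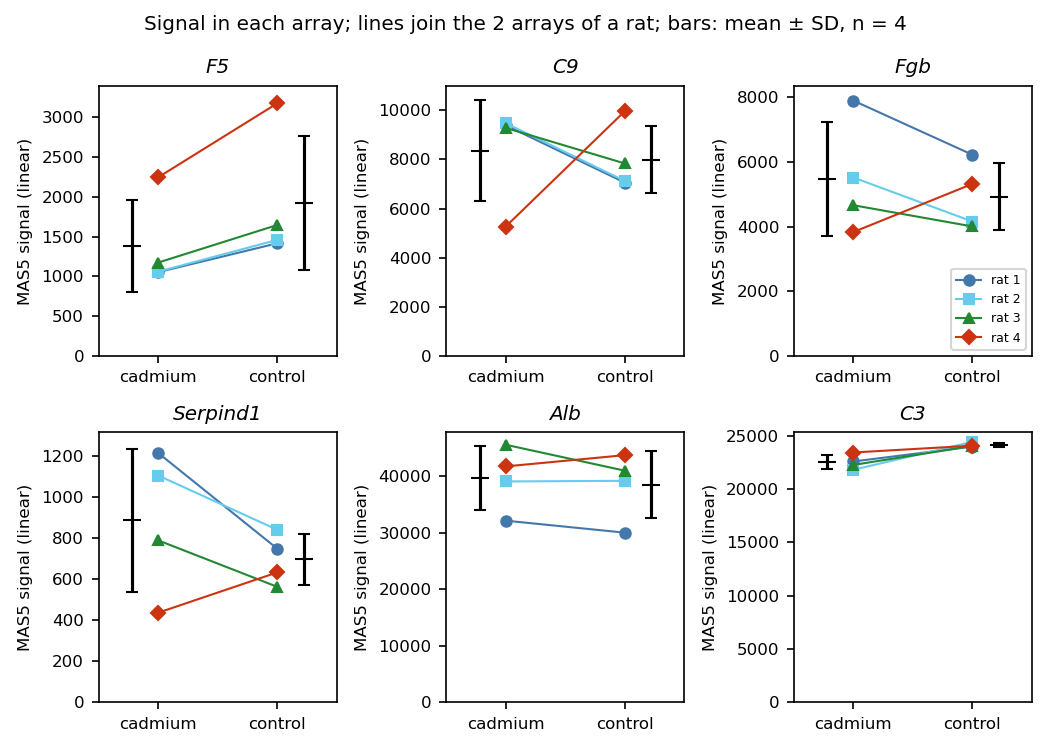
MAS5 signal (linear, vertical axis) of F5, C9, Fgb, Serpind1, Alb and C3 on cadmium arrays (left) and control arrays (right), with lines joining both arrays of a rat and bars giving the mean ± SD (n = 4). F5 falls after cadmium in each rat, and for C9, Fgb and Serpind1 the line of rat 4 runs against those of rats 1 to 3.

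The starts of 4 of these genes are printed below, because they carry short motifs of factors that answer metal, heat shock or inflammation or that act in liver, and because F5 moved while the other 3 did not pass the test. Each is the RefSeq promoter window of the assembly GRCr8, 250 bases before to 50 after the gene's start, read on the strand of the gene, with motif matches in capitals. F5 lies at chr13:79046407-79046706, plus strand. Fgb, the fibrinogen beta chain, lies at chr2:170700826-170701125, minus strand. Plg, plasminogen, lies at chr1:50915357-50915656, minus strand. Serpina3n, a serine protease inhibitor, lies at chr6:129088142-129088441, plus strand.
F5: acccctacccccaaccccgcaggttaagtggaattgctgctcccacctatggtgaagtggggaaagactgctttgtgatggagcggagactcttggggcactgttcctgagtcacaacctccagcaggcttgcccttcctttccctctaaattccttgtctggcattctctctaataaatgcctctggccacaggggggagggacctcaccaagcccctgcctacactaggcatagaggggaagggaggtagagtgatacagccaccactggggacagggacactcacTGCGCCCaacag
Fgb: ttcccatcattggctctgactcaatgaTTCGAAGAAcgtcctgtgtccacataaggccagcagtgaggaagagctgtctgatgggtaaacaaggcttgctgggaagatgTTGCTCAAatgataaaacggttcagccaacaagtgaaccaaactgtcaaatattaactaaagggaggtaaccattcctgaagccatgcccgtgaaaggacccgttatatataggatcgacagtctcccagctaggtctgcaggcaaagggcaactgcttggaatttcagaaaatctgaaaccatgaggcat
Plg: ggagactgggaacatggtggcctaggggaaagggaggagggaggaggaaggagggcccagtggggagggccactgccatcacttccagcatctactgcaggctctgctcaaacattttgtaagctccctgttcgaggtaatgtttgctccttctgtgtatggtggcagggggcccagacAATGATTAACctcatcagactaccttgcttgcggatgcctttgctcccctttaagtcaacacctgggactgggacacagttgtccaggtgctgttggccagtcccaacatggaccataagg
Serpina3n: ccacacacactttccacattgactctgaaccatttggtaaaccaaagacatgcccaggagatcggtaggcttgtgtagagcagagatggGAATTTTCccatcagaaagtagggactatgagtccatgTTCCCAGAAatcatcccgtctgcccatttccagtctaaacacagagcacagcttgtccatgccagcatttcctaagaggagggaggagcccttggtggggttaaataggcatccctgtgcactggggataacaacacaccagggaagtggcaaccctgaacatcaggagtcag

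Both strands of the windows were searched for 6 motifs: the heat shock element GAANNTTC, a STAT3 site TTCNNNGAA, a C/EBP site TTGCNNAA, the HNF1 site, the core of the metal response element, TGCACNC or TGCGCNC, and the antioxidant response element TGACNNNGC. The capitals in F5 are 1 match to the metal response core, which 24.2% of all 33469 promoter windows hold. Those in Fgb are a STAT3 match (8.87% of all windows) and a C/EBP match (10.6%). In Plg there is an HNF1 match on the opposite strand (0.335%). In Serpina3n they are a heat shock match (8.59%) and a STAT3 match. None of these windows held the antioxidant element (12.1%). No matches overlapped, and a match is a description of letters, not of binding. Windows were found for 32 of the 42 genes (76.2%), too few for a share over the list. Hrg, Apoa1, Hp, Apoa2, C9, Apob, Serpind1, Apoc3, Lbp and A2m had no entry.

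Among the coagulation factors, F5 was thus the 1 of 6 tested that fell, and 0 rose. The 3 fibrinogen chains had log2 changes of -0.16 (Fga), 0.12 (Fgb) and 0.07 (Fgg). F2, prothrombin, was at 0.08. F10, the protease that factor V assists, had the smallest change of the group. Its signal was 2695, 2720.4, 2995 and 1929.8 on cadmium arrays, against 2476, 2287, 2592 and 2451 on control arrays. The 3 cadmium arrays of rats 1 to 3 were each above their own control and that of rat 4 below it. The groups overlapped, at a value of 0.06 ± 0.11 on the log2 scale (SE; 95% confidence interval -0.19 to 0.31; limma, adjusted p = 0.805).

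Of the 8 apolipoproteins tested, 0 passed in either direction, with a median log2 change of 0.01 and a range of -0.17 to 0.09. Apoc3, an inhibitor of triglyceride clearance, had the largest change. Its signal was 13354, 13712, 14113 and 11672 on cadmium arrays and 14222, 14490.2, 15657 and 15186 on control arrays. All cadmium values lay below all control values. The log2 change was -0.17 ± 0.07 (SE; limma, adjusted p = 0.219), and the within-rat differences were -0.09, -0.08, -0.15 and -0.38. After quantile normalization its adjusted p was 0.0459, so that it then passed along with F5.

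Groups that did not overlap were found for 2 of the 41 genes, Apoc3 and C3, both lower after cadmium, against 11.6% of all genes. Apob, the scaffold of very low density lipoprotein, had the smallest change of the apolipoproteins. Its signal was 6854, 6287, 6163 and 4910.3 after cadmium, against 5347, 5982, 5639.7 and 7892 in control. Rats 1 to 3 were higher after cadmium and rat 4 lower, and the mean log2 change of -0.03 ± 0.15 (SE) joins these opposite values. The remaining apolipoproteins, among them Apoa1 of high density lipoprotein (0.08), Apoa2 (-0.17), Apoc1 (-0.05), Apoe (0.07) and Apoh (0.05), did not pass.

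Of the 9 carrier and binding proteins tested, 0 passed, with a median log2 change of 0.01 and a range of -0.09 to 0.15. Alb encodes serum albumin, the main protein of plasma. It read 32115, 39044, 45526 and 41702 on cadmium arrays and 29993, 39152, 40941 and 43690.3 on control arrays. Both groups covered nearly the same range, and the log2 change was 0.05 ± 0.06 (SE; 95% confidence interval -0.09 to 0.18). The smallest change of the group was in Rbp4, which carries retinol. Rbp4 signals were 10804, 11789, 9331 and 8239 on cadmium arrays, against 10001, 10377, 8388 and 11019 on control arrays, with overlapping groups and again with rats 1 to 3 higher and rat 4 lower after cadmium.

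The largest change among the carriers was in Cp, ceruloplasmin, the copper-carrying ferroxidase. Its signal was 7431, 7483, 7219.8 and 6881 on cadmium arrays, against 6519, 6164, 6450.0 and 6936 on control arrays. Cadmium was higher in 3 of 4 rats, the groups overlapped through rat 4, and the log2 change was 0.15 ± 0.07 (SE; limma, adjusted p = 0.281). The probe sets of Cp disagreed. The dimmest of its 3 gave -0.64 ± 0.16 (SE; limma, adjusted p = 0.0612) and the other gave -0.06, so the gene has no settled direction. Among the 7 genes with several probe sets, those of Alb, Apob and Fga had the same sign wherever more than 1 passed the filter, while those of Gc, the vitamin D carrier, gave -0.02 and 0.07. Ttr, which carries thyroid hormone, was at -0.09, and Hp (0.03) and Hpx (-0.01), which bind haemoglobin and haem, Ambp (0.05) and Ahsg (0.01) were near 0.

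Of the 5 acute phase proteins tested, 0 passed, with a median log2 change of 0.02. Crp, the pentraxin C-reactive protein, had the largest change. Its signal was 3916, 3748, 3298 and 1956 on cadmium arrays and 3514, 2998, 2802 and 2618 on control arrays. Rats 1 to 3 were higher after cadmium, rat 4 was lower, the groups overlapped, and the log2 change was 0.07 ± 0.12 (SE; limma, adjusted p = 0.784). Lbp, which hands bacterial lipopolysaccharide to its receptor, had the smallest. Lbp signals were 6924, 6974, 5463 and 5654 after cadmium and 6297, 7058, 4951 and 6446 in control, with overlapping groups and a log2 change of 0.02 ± 0.08 (SE). Orm1 (-0.07), Lcn2 (-0.05) and Apcs (0.04) did not pass either. A2m, a major acute phase protein of the rat, was dim on every array and was not tested in the main fit. Its signal was 82.8, 79.9, 80 and 97.8 after cadmium and 60.5, 28.5, 18.9 and 91.6 in control. With no filter on dim probe sets, A2m did not pass (limma, adjusted p = 0.319).

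The 10 tested anticoagulants, plasminogen and protease inhibitors had a median log2 change of 0.08, and 0 passed. Of their changes 9 were positive as deposited, 6 after quantile normalization and 10 after median centring. Of all 7099 genes, 2723, 3036 and 3798 changes were positive under these scalings. Serpind1, heparin cofactor II, had the largest change and the widest spread. Its signal was 1213, 1103, 788 and 436 on cadmium arrays, against 747, 839, 562 and 632 on control arrays. The cadmium array of rat 4 was the lowest of all 8, the groups overlapped, and the log2 change was 0.26 ± 0.18 (SE; 95% confidence interval -0.16 to 0.68; limma, adjusted p = 0.475). Vtn, vitronectin, had the smallest change. Vtn signals were 10349.8, 9198, 9934 and 7219.8 after cadmium and 9012, 10589.9, 9522 and 7996 in control, with overlapping groups and a log2 change of -0.02 ± 0.08 (SE).

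Itih4, an inter-alpha-trypsin inhibitor heavy chain, was the only gene of the list that was higher after cadmium in 4 of 4 rats among those that passed the filter. It read 9495, 9501, 9952 and 8089.6 on cadmium arrays, against 9153, 7663, 7782 and 7924 on control arrays. The groups overlapped, and the log2 change was 0.19 ± 0.08 (SE; limma, adjusted p = 0.232). Plg (0.13), Serpina1, alpha-1-antitrypsin (0.05), Serpina3n (0.10), Serpinf2, antiplasmin (0.04), Itih3 (0.03), Hrg (0.15) and Proc, protein C (0.04), did not pass.

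Of the 3 complement genes tested, 0 passed. C3, on which the complement pathways converge, had the largest change of the group. Its signal was 22583, 21804, 22261 and 23426 on cadmium arrays, all below the control arrays at 23988, 24432, 24036 and 24068. The log2 change was -0.10 ± 0.06 (SE; limma, adjusted p = 0.383), with within-rat differences of -0.09, -0.16, -0.11 and -0.04. Cfi, the protease that inactivates C3b, had the smallest change. Cfi signals were 5388, 5252, 5142 and 4224 after cadmium, against 4946, 5185, 4742 and 5140.0 in control, with a log2 change of -0.01 ± 0.09 (SE). The groups overlapped, and the cadmium array of rat 4 was the lowest of all 8.

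**Figure D3:**
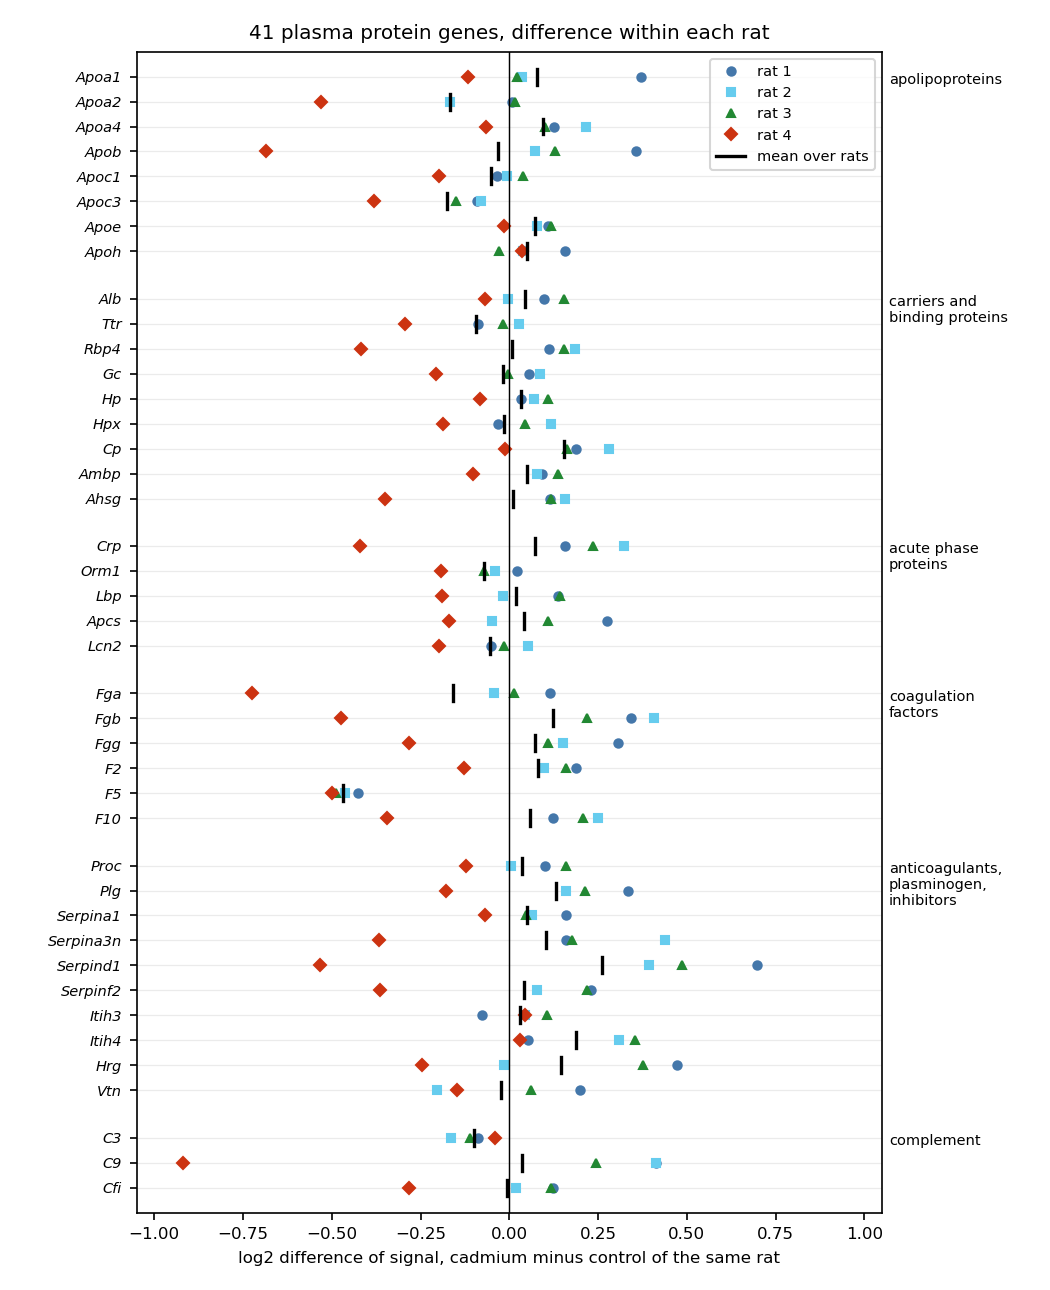
Log2 difference of signal, cadmium minus control of the same rat (horizontal axis), for the 41 tested genes by role (rows), with 1 symbol per rat and a black bar at the mean over 4 rats. The red diamonds of rat 4 lie left of the other symbols in 37 of 41 rows, while the symbols of F5 lie together near -0.47.

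The differences within the 4 rats were not alike over the list. Each rat gave 1 array per group, so that rat, culture and array cannot be told apart here. The median log2 difference of the 41 genes was 0.12 in rat 1, 0.07 in rat 2, 0.12 in rat 3 and -0.20 in rat 4, while that of all tested genes lay between -0.08 and -0.05 in each rat. After cadmium 33, 29 and 33 of the 41 genes were higher in rats 1, 2 and 3, and 3 of 41 were higher in rat 4. Of all genes, 42.8%, 42.2%, 42.6% and 41.7% were higher in rats 1 to 4. In rat 4, 92.7% of the 41 genes were lower after cadmium, against 58.3% of all genes. The lowest of the 4 differences belonged to rat 4 for 37 of 41 genes (90.2%), against 31.7% of all genes. The pattern of a higher signal in rats 1 to 3 and a lower one in rat 4 was seen for 22 of the 41 genes (53.7%), against 5.82% of all genes. No test is given for these shares, since the genes of an array share its signal.

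The lower signal in rat 4 was seen under each scaling, and the higher signal in rats 1 to 3 was not. After quantile normalization the list medians were 0.03, -0.03, 0.02 and -0.24 in rats 1 to 4, and 92.7% of the genes were lower in rat 4, against 56.4% of all genes. After median centring the medians were 0.22, 0.15, 0.20 and -0.15, and 85.4% were lower in rat 4, against 53.3% of all genes. The pattern of rats 1 to 3 up and rat 4 down held for 12 genes of the list (29.3%) after quantile normalization, against 6.49% of all genes, and for 31 (75.6%) after median centring, against 10.6% of all genes.

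In the median over the list, the difference lay on the cadmium array of rat 4 rather than on its control array. Log2 signal on that cadmium array minus the mean of rats 1 to 3 had a median of -0.285, against 0.006 over all genes. For the control array of rat 4 it was 0.005, against 0.005 over all genes. The cadmium array of rat 4 was the lowest of the 4 cadmium arrays for 34 of the 41 genes (82.9%), against 31.4% of all genes. Its control array was the lowest control for 11 of the 41 (26.8%), against 26.8% of all genes, a count that cannot show a high control. For some genes, among them C9, Apob, Apoa2 and Rbp4, the control of rat 4 was the highest control. Summed over the 41 genes, signal was 505399, 516407, 517475 and 443647 on the cadmium arrays of rats 1 to 4, against 473451, 496900, 492560 and 502590 on their control arrays. These groups did not differ beyond their spread (exact two-sided permutation p = 0.857; 1.0 with signs turned within rats). As a share of all signal, the sums came to 4.37%, 4.41%, 4.39% and 3.82% after cadmium and 4.19%, 4.37%, 4.28% and 4.34% in control.

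**Figure D4:**
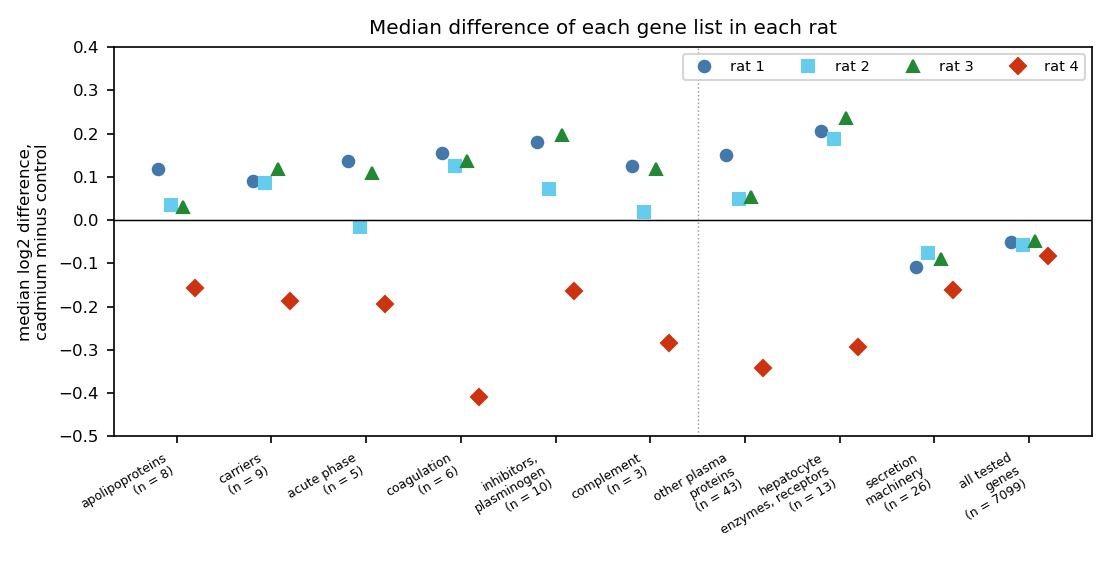
Median log2 difference, cadmium minus control (vertical axis), of each role group of plasma protein genes and, right of the dotted line, of other lists and all tested genes, with 1 symbol per rat and the number of genes tested under each name. Rat 4 lies between -0.16 and -0.41 in all 6 role groups, where rats 1 and 3 are above 0 as deposited, though rat 1 is below 0 in 3 groups and rat 3 in 1 after quantile normalization.

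All 6 role groups had a negative median in rat 4, between -0.41 for the coagulation factors and -0.16 for the apolipoproteins, and a positive one in rats 1 and 3. After quantile normalization the medians of rat 4 stayed negative in all 6, between -0.46 and -0.16, but those of rat 1 were below 0 in 3 groups and that of rat 3 in 1. The largest single difference was that of C9, a component of the membrane attack complex. C9 signals were 9387, 9474, 9279.7 and 5267 on cadmium arrays, against 7055, 7120.1, 7833 and 9966 on control arrays. In rat 4 the cadmium value was the lowest of all 8 and the control value the highest. Fgb signals were 7896, 5518, 4660.2 and 3831 on cadmium arrays, against 6221, 4156, 4004 and 5321 on control arrays. The cadmium value of rat 4 was again the lowest of all 8, while its control value lay within the range of the other controls.

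Without rat 4, the list gave 3 genes higher and 1 lower, in a fit that called 6.03% of all genes, 3.17% higher and 2.86% lower. The 3 higher genes were C9, at 0.36 ± 0.07 on the log2 scale (SE; limma, adjusted p = 0.0127), Fgb, at 0.32 ± 0.07 (adjusted p = 0.0248), and Serpind1, at 0.53 ± 0.11 (adjusted p = 0.0189). F5 was the lower one, at -0.46 ± 0.09 (adjusted p = 0.0151). The median of the list was then 0.10. Rat 4 was singled out on these values themselves. Within the chip lot of rats 1 and 2, 1 of 41 genes passed, C9 (0.41; limma, adjusted p = 0.0325), 2.44% of the list against 3.00% of all genes. Within the lot of rats 3 and 4, 0 of 41 passed, against 0.803% of all genes. The list medians in these lots were 0.10 and -0.07.

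Other values moved with the cadmium array of rat 4. The summed signal of 13 hepatocyte markers was 75563, 78060, 81404 and 59168 on cadmium arrays, against 64202, 74640, 69853 and 70637 on control arrays. The summed signal of the 12 stellate cell markers on the array was 1843, 1761, 2481 and 5364 on cadmium arrays, against 2293, 2450, 3455 and 3012 on control arrays. Reln, 1 of the 4 past the filter (Acta2, Col1a1, Reln and Tagln), was lower after cadmium in the paired fit. Both sums had their extreme value on the cadmium array of rat 4, the first at its lowest and the other at its highest. The 12 leukocyte markers summed to 3797 to 5986 after cadmium and 4123 to 7427 in control, with the highest value of each group in rat 4. The 8 endothelial markers summed to 549 to 661 after cadmium and 554 to 782 in control, and the 5 bile duct markers to 1612 to 3171 after cadmium and 2047 to 3468 in control. The bile duct sum was lowest in rat 4 in each group. The 3'/5' signal ratio of Gapdh, a measure of RNA integrity, was 0.972 to 1.12 on cadmium arrays and 0.958 to 1.06 on control arrays (exact permutation p = 0.286; 0.5 with signs turned within rats). The same ratio of beta-actin was 1.43 to 1.63 on cadmium arrays and 1.38 to 1.79 on control arrays. These groups gave an exact permutation p of 0.771, and 0.625 with signs turned within rats. In rat 4 the beta-actin ratio was 1.63 after cadmium and 1.79 in control. The part of these values in the low plasma protein signals of rat 4 was not tested.

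Some genes differed between rats in both cultures. With cadmium as a term, the moderated F test of limma called 4 of the 41 genes at an adjusted p under 0.05, against 1.89% of all genes. They were F5 (F = 44.0, adjusted p = 0.00355), Apoa4 (F = 27.1, adjusted p = 0.0141), Apcs (F = 19.4, adjusted p = 0.0283) and Lcn2 (F = 18.2, adjusted p = 0.0337). Of the others, Alb had the next highest F (13.1, adjusted p = 0.0650). Levels of the rat with the highest and the rat with the lowest mean were 2.19-fold apart for F5, 1.96-fold for Apoa4, 1.75-fold for Apcs and 1.58-fold for Lcn2.

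These rat differences did not run one way. Apoa4, an apolipoprotein of chylomicrons and high density lipoprotein, read 4106, 5199.5, 3506 and 2411 on cadmium arrays and 3763, 4476, 3270.3 and 2522 on control arrays, lowest in rat 4 in both groups. Apcs, serum amyloid P, read 4721, 4149.6, 3039.9 and 2310.3 after cadmium and 3901, 4296, 2819 and 2599.6 in control, also lowest in rat 4. Lcn2, a lipocalin that binds bacterial siderophores, read 15504, 17528, 14129 and 20935 after cadmium and 16056, 16895, 14287 and 24019.7 in control, highest in rat 4. Their log2 changes with cadmium, 0.09 ± 0.08, 0.04 ± 0.09 and -0.05 ± 0.07 (SE), did not pass the test.

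Genes around these pathways were read from 3 further lists. Of 43 tested genes for other plasma proteins, 1 was higher and 0 were lower, with a median log2 change of -0.06. The higher one was Igfbp1, a binding protein of insulin-like growth factors, with 5903, 7773, 4067 and 4857 on cadmium arrays and 3397, 3510.2, 1982 and 4945 on control arrays. It was higher in rats 1 to 3 and level in rat 4, with overlapping groups and a change of 0.74 ± 0.17 on the log2 scale (SE; limma, adjusted p = 0.0433; 0.183 without the rat as a block). Without rat 1, rat 2 or rat 3 it did not pass (limma, adjusted p = 0.149, 0.193 and 0.160), nor with no filter on dim probe sets (0.0956). Without rat 4, the rat in which it was level, Igfbp1 was at 0.99 ± 0.08 (SE; limma, adjusted p = 9.51e-05). This list was low in rat 4 too, with 90.7% of its genes lower there.

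Of 21 tested genes of acute phase signalling and liver transcription factors, 0 were higher and 1 was lower, with a median of -0.17. The lower one was Foxa2, a forkhead transcription factor of liver genes. Its signal was 408, 449, 535 and 351 on cadmium arrays, all below the control arrays at 586, 782, 935 and 758. The log2 change was -0.81 ± 0.12 (SE; limma, adjusted p = 0.00694), lower in 4 of 4 rats, and the adjusted p was 0.0522 without rat 2. Without rat 4, Foxa2 was at -0.71 ± 0.12 (SE; limma, adjusted p = 0.00707). Cebpb, an activator of acute phase genes, read 317, 287, 273 and 577 on cadmium arrays, all above the control arrays at 201, 161, 204 and 136. The widest gap was in rat 4. The log2 change was 0.99 ± 0.26 (SE; limma, adjusted p = 0.0637) and 0.63 ± 0.17 without rat 4 (adjusted p = 0.0587), so that it did not pass either time. Cebpd, its relative, was below the filter on mean signal and was not tested in the main fit. It read 93.4, 121, 25.4 and 15.9 on cadmium arrays, all below the control arrays at 304, 248, 161 and 183. In the fit with no filter, Cebpd passed, at -2.20 ± 0.41 (SE, limma adjusted p = 0.0449). That fit called 0.807% of all genes lower. At an unadjusted p under 0.05 there were 6 of the 21 tested genes, against 20.4% of all genes. Cebpb alone of these was higher. The lower ones were Foxa2, Mapk14 (-0.46, limma adjusted p = 0.0522), Myd88 (-0.48, 0.0879), Jak2 (-0.77, 0.094) and Irak1 (-0.27, 0.132). Each of these was lower in 4 of 4 rats. Cebpb, Cebpd, Mapk14, Myd88, Jak2 and Irak1 are named after their values were seen.

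Of 26 tested genes for translocation into the endoplasmic reticulum, signal cleavage, gamma-carboxylation and export of secreted proteins, 0 passed in either direction. The median log2 change was -0.10, and 20 of the 26 changes were negative as deposited, against 21 after quantile normalization and 14 after median centring. Of all 7099 genes, 4376, 4062 and 3301 changes were negative under these scalings. At an unadjusted p under 0.05 there were 6 of 26 (23.1%), close to the 20.4% of all genes, and all were lower: Ggcx, the gamma-carboxylase, Furin, a proprotein convertase, Srp9, Srp19, Spcs1 and Spcs3. Furin had the largest change of these, -0.41 ± 0.11 (SE; limma, adjusted p = 0.0796). Its signal was 319, 408, 436 and 429 on cadmium arrays, all below the control arrays at 484, 496, 559 and 561. The 13 hepatocyte enzymes and receptors used as markers gave 0 higher and 0 lower, and 12 of 13 had their lowest cadmium value in rat 4.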

How the data were processed

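Arrays of 4 cadmium and 4 control samples were grouped by the labels. The deposited values are linear intensity signals, 1 for each probe set of an array, which the authors made with MAS5, per the submitters' processing notes. The version and scaling target of MAS5 were not given in the sources used here. Other deposited files, 1 per array, gave chip lot and fluidics module only. Of 15923 probe sets, 57 controls were left out. Platform symbols were updated by gene number to RefSeq: 12783 probe sets had 1 symbol, 312 several and 2771 none here.

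Signals were used as log2(signal + 1), which understates changes of dim genes. Probe sets in the dimmest 40% by mean (signal under 118) were dropped, leaving 9519. The paired comparison used limma 3.58.1 under R 4.3.3 (lmFit with the rat as a block, then eBayes with a trended variance). Tests were two-sided, and p-values were adjusted after Benjamini and Hochberg across the 9519 probe sets. Per the labels, a replicate number names 1 rat, whose cells gave both samples. Their deviations from group means correlated at 0.35, 0.251, 0.475 and 0.196 in rats 1 to 4, against at most -0.00828 between rats. Taking out the group means itself pushes the values between rats below 0 when those within rats are above it. The fit was tested on simulated data. The exact tests ran over all assignments of arrays to groups and, added after the data were seen, over all signs of the within-rat differences. The metal response core was also narrowed then, from TGCNCNC, which 49.6% of all windows hold.

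Per-array values are given for genes past the threshold, for the largest and smallest change of each role group and for genes that differed between rats. Of the further lists, genes past the threshold are named and, for the signalling and secretion lists, those at an unadjusted p under 0.05. Alb, Itih4, C9, Fgb, Cebpb, Cebpd and Furin were added after their values were seen. The genes and lists were chosen with earlier results of these data known. MAS5 handles each array alone. Dim values are noisy, and brightness cannot be compared between probe sets.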

Additional observations from a re-analysis of the deposited data

Results flagged for a closer look

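In groups of 4 arrays, 6 of 86 groups (43 genes, cadmium and control each) had a sample that stood apart on the log2 scale. The gap of its log2 signal to the nearest other, as a share of the group's log2 range, exceeded Dixon's 95% critical value. The signals printed below are linear. Chance does this in about 1 group in 20 if groups are independent, which these are not, since the genes of an array share its signal. On the cadmium array of rat 4, 3 genes were low: Ttr at 11619.5 (others 14642.5 to 15281.6), Hrg at 3106.4 (others 5673.2 to 5984.7) and C9 at 5267.2 (others 9279.7 to 9474.0). F5 was high there, at 2245.3 (others 1053.0 to 1173.5), and was also high in the control culture of that rat. Among control arrays, Serpina3n was low in rat 2, at 4163.0 (others 5731.1 to 6032.6), and Serpinf2 was low in rat 1, at 1031.6 (others 1263.0 to 1300.3).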

How the results depend on the processing

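The count of plasma protein genes that were higher was 0, and that of lower ones was 1. Without the rat as a replicate block, 0 were lower, against 1.31% of all genes. That count was also 0 with no variance trend (1.01% of all genes), within chip lot 1 (0.0423%) and within chip lot 2 (1.13%), and 2 after quantile normalization (1.59%), where Apoc3 (-0.25) joined F5. Leaving out each rat in turn gave 0 to 1 lower and 0 to 3 higher, the 3 without rat 4, while of all genes 0.366% to 2.86% were lower and 1.18% to 3.17% higher. Within chip lot 2, 1 was higher, against 1.87% of all genes. With no filter, 2 genes differed between rats instead of 4, against 0.682% of all genes instead of 1.89%. The list median stayed between -0.07 (chip lot 1) and 0.12 (median centring), within its SD of 0.15 over rats. Signs of 43 genes, F5 not among the changes, differed from those reported for 13 after quantile normalization and 8 after median centring, and for up to 14 in fits on fewer rats. Causes were not tested. Off the list, the adjusted p of Igfbp1 ranged from 9.51e-05 to 0.486 and that of Foxa2 from 0.00475 to 0.107 over these settings. A pseudocount of 32, a 60% filter and averaging the probe sets of a gene changed no cadmium call on the list. Fits within a lot have 2 rats, which limits what they can call. Fluidics module and treatment cannot be told apart, and each group holds 4 rats.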
